A study of Mus musculus with 36 samples.

Results

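The 9 transporters and receptors of the kidney's proximal tubule described here were chosen by symbol for what they do. They are *Slc34a1*, *Slc34a3*, *Slc5a2*, *Slc5a12*, *Slc22a6*, *Slc22a8*, *Slc22a12*, *Lrp2* and *Cubn*, and all 9 symbols matched 1 gene each among the 78239 genes counted. RNA came from kidney, heart and liver of wild-type male C57BL/6NCrl mice aged 8, 10 or 12 weeks, with 4 samples for each tissue and age and 36 in all. No transgene and no treatment is named for these mice beyond the ketamine and xylazine given before tissue was taken. They were bought as adolescents and housed until the age at which their tissues were flash-frozen, so each age is a separate set of animals and no animal was followed over time. Whole pieces of tissue were sequenced, and in such bulk samples fewer tubule cells and less RNA per cell cannot be told apart.

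The proximal tubule is the first and longest stretch of the renal tubule, and it takes most of the filtered phosphate, glucose, amino acids and protein back into the blood. Its cells carry sodium-coupled carriers in the brush border facing the urine, organic anion carriers in the membrane facing the blood, and giant endocytic receptors that retrieve filtered proteins and vitamin carriers. *Slc34a1* (NaPi-IIa) and *Slc34a3* (NaPi-IIc) carry phosphate, *Slc5a2* (SGLT2) carries glucose, and *Slc5a12* (SMCT2) carries lactate and other monocarboxylates. *Slc22a6* (OAT1) and *Slc22a8* (OAT3) bring organic anions, drugs among them, into the cell from the blood, and *Slc22a12* (URAT1) takes back urate. *Lrp2* encodes megalin and *Cubn* encodes cubilin, which together bind albumin and other filtered proteins.

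On GRCm39, *Slc34a1* lies on chromosome 13 at 55546000-55563413 (plus strand), *Slc5a2* on chromosome 7 at 127864829-127871602 (plus) and the 3 *Slc22a* genes on chromosome 19. *Slc22a8* (8568476-8589541, plus) and *Slc22a6* (8595356-8605663, plus) are neighbours there, and *Slc22a12* (6585875-6593062, minus) lies apart from them. Chromosome 2 holds *Cubn* (13281149-13496624, minus), *Slc34a3* (25118910-25124376, minus), *Lrp2* (69254682-69416409, minus) and *Slc5a12* (110427639-110479688, plus). The carriers' main transcripts have 10 to 15 exons, that of *Lrp2* has 79 exons and a length of 15.462 kb, and that of *Cubn* has 67 exons and 11.262 kb.

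HNF4A is a transcription factor of the proximal tubule, so the 250 bases before the start of each gene's main transcript (the annotation's canonical one) were searched on both strands for its letter pattern, CAAAGTCCA with up to 1 mismatch. The pattern stood before 2 of the 9 genes and before 7.18% of 21770 protein-coding genes. The 2 matches are shown on the strand of the gene, with the matching bases in capitals. That of *Slc34a1* reads on the opposite strand, and the search says nothing of binding.
Slc34a1, chr13:55547443-55547471, match beginning 53 bases before the start: tagttcattaAGGACTTTGcccttgaccc
Lrp2, chr2:69416509-69416537, match beginning 118 bases before the start: cccagagtcgCAAAGTGCAgggggcgggc

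The kidney samples held 21323021 to 32670858 counted read pairs, those of heart 21743131 to 29791297 and those of liver 21031599 to 33637390. Levels are given as CPM, the pairs on a gene as a share of all pairs of the library on the usual CPM scale, after edgeR's TMM scaling of library sizes. The scaling was done within each tissue. Kidney tissue carried the markers of its segments, with 42322 to 55435 CPM summed over 18 other proximal tubule genes, 4902 to 6303 CPM over 5 genes of the thick ascending limb and 363 to 428 CPM over 5 podocyte genes. The heart muscle gene *Myh6* was at 0.230 to 1.43 CPM in kidney against 19559 CPM or more in heart, and the liver gene *Alb* at 4.89 to 8.60 CPM against 51613 CPM or more in liver. The 5 genes of brown and white fat summed to 54.8 CPM at most in a kidney sample.

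All 9 genes were abundant in kidney, where together they took 10278 to 12676 CPM, a mean of 1.14% of all counted pairs. Because longer transcripts give more pairs, levels were compared between genes only per kilobase of the main transcript. *Slc34a1* led by far with 1373 ± 91.8 CPM per kb (SD, n = 12), and *Slc34a3*, which carries the same ion, was lowest with 30.3 ± 2.88 CPM per kb. Between them stood *Slc22a12* (309 ± 43.9), *Slc22a6* (216 ± 29.6), *Lrp2* (167 ± 22.8), *Slc5a2* (151 ± 13.6), *Slc22a8* (114 ± 14.8), *Slc5a12* (90.3 ± 12.4) and *Cubn* (49.3 ± 7.51 CPM per kb). The ranges of neighbours in this order overlapped except at its top and its bottom. *Slc22a6* was above *Lrp2* in 10 of 12 samples, *Lrp2* above *Slc5a2* in 8 of 12 and *Slc22a8* above *Slc5a12* in 10 of 12, while every other neighbouring pair kept its order in all 12.

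Some of these per-kilobase levels are understated, since a pair that touches exons of 2 genes is counted for neither. *Slc22a12* shares 682 exon bases with *Nrxn2* on the other strand, *Slc5a2* shares 597 with *Rusf1*, *Cubn* 737 with the long noncoding RNA *Gm13270* and *Slc34a1* 545 with *Pfn3*. When pairs were counted for each strand and summed, kidney counts came to 159% of the deposited total for *Slc22a12*, 150% for *Slc5a2*, 128% for *Cubn* and 102% for *Slc34a1*. The summed level was 491 CPM per kb for *Slc22a12* and 227 for *Slc5a2*, which put *Slc5a2* above *Slc22a6* (216) in the order. These sums can hold pairs of the neighbour as well. For *Slc5a2* the summed level was 1.09 CPM per kb in heart and 3.51 in liver, where the count without regard to strand gave 0.0112 and 0.00176.

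None of the 9 genes passed the adjusted p of edgeR's quasi-likelihood test in kidney between any 2 ages. Over all 17649 kidney genes tested, 0.0567% passed at 12 against 8 weeks, 0.929% at 10 against 8 weeks and 0.482% at 12 against 10 weeks, and 0.0397%, 0.646% and 0.136% passed as higher at the older age. The test for any difference among the 3 ages called 0 of 9 genes beside 0.816% of all. At an unadjusted p under 0.05 there were 2 of the 9 at 12 against 8 weeks, 2 at 10 against 8 weeks, 3 at 12 against 10 weeks and 2 for any difference, where 11.7%, 16.5%, 16.4% and 19.1% of all genes were under it. limma-voom called 0 of 9 throughout, and DESeq2 called *Slc5a2* alone, at 10 against 8 weeks and for any difference, where it called 3.85% and 5.65% of all genes, and none of the 9 at 12 against 8 or 12 against 10 weeks (0.776% and 3.72% of all). Without the filter on low counts edgeR tested 42077 genes and called *Slc5a2* at 10 against 8 weeks (adjusted p = 0.0371) and *Slc22a6* and *Slc22a8* at 12 against 8 weeks (0.0384 and 0.0403), beside 2.39% and 1.22% of all genes. It then called 0 of 9 at 12 against 10 weeks (2.23% of all) and 3 for any difference (3.73%).

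**Figure D1:**
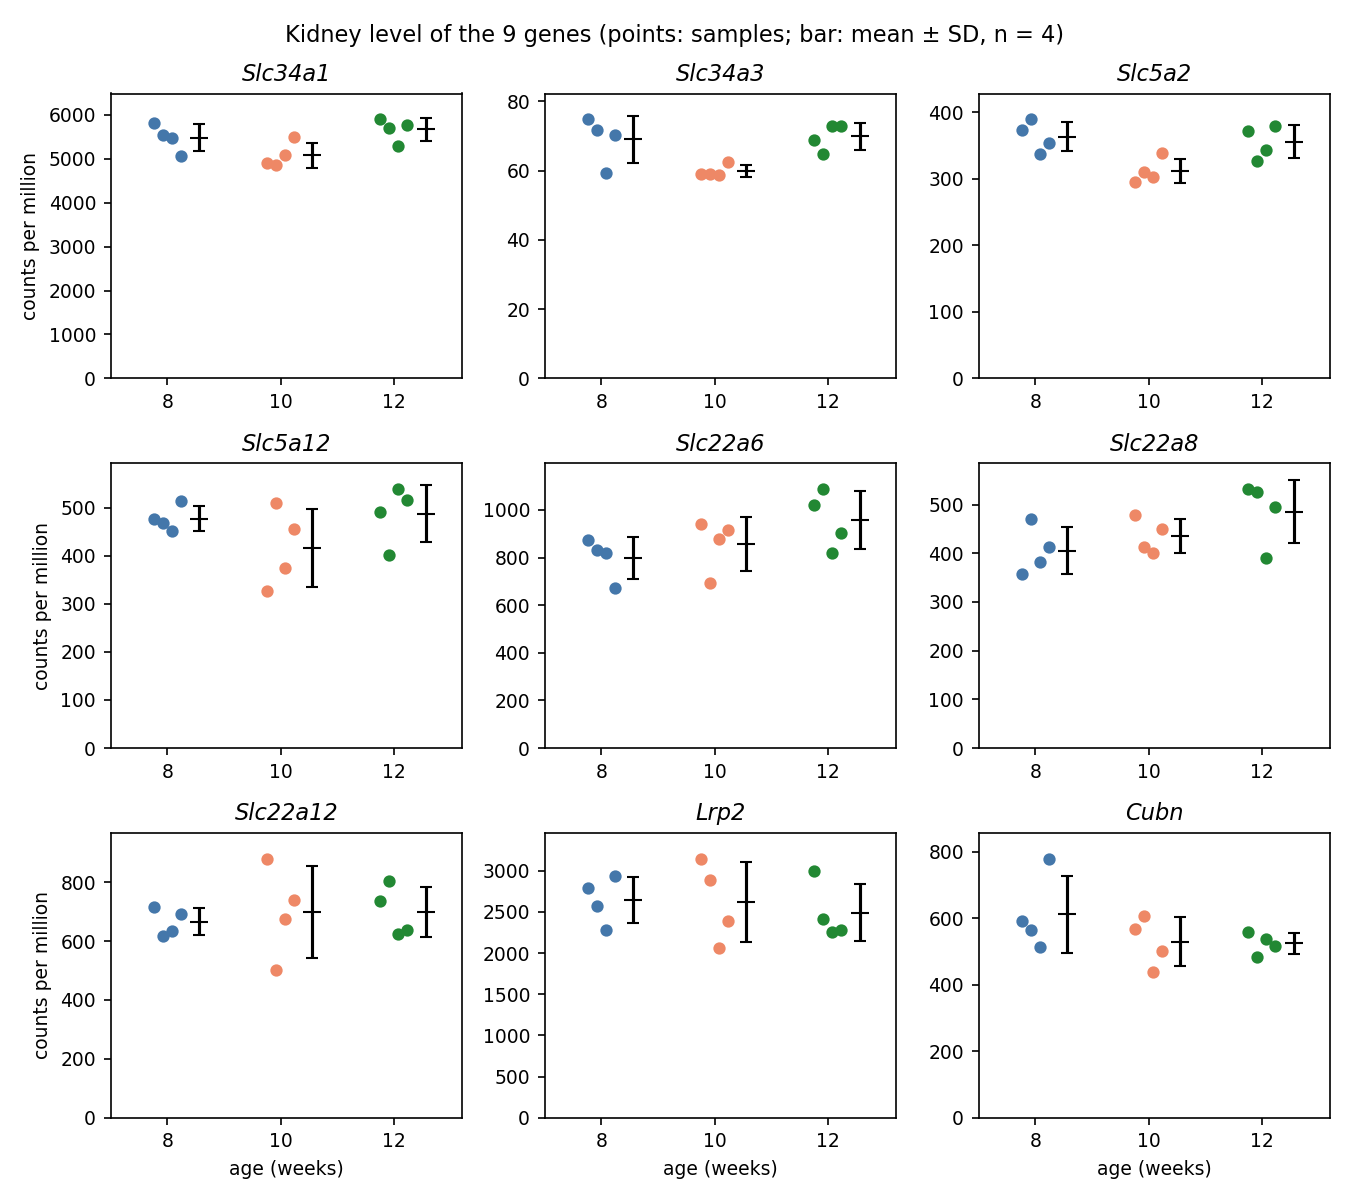
Level of each of the 9 genes in kidney (CPM, axes from 0) at 8, 10 and 12 weeks, with a point for each of the 4 samples and the mean ± SD beside them. The 3 ages overlap for nearly every gene; only *Slc34a3* has its 4 samples at 12 weeks (64.8 CPM or more) above the 4 at 10 weeks (62.5 CPM or less).

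Among the phosphate carriers, *Slc34a1* stood at 5816, 5543, 5484 and 5071 CPM at 8 weeks, at 4917, 4854, 5082 and 5488 CPM at 10 weeks and at 5900, 5704, 5305 and 5777 CPM at 12 weeks. The 10-week samples lay lowest on average, and each pair of ages overlapped. The log2 fold change was -0.11 ± 0.067 (SE) at 10 against 8 weeks (edgeR adjusted p = 0.460), 0.16 ± 0.067 at 12 against 10 weeks (0.258) and 0.05 ± 0.067 at 12 against 8 weeks (0.818). For the last of these the 95% interval of the difference ran from -6.25% to 14.3%.

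*Slc34a3*, the rarer phosphate carrier, measured 74.8, 71.6, 59.3 and 70.3 CPM at 8 weeks, 59.0, 59.1, 58.8 and 62.5 CPM at 10 weeks and 68.9, 64.8, 72.8 and 72.8 CPM at 12 weeks. All 12-week samples were above all 10-week samples, while 1 sample at 8 weeks lay within the 10-week range. It was the single gene of the 9 without overlap at 12 against 10 weeks, where 8.93% of all genes had none, and 0 of 9 were without overlap in the other comparisons of ages (6.61% and 9.09% of all). The log2 fold change was -0.20 ± 0.068 at 10 against 8 weeks (edgeR adjusted p = 0.147) and 0.22 ± 0.067 at 12 against 10 weeks (0.121). The counts behind these values were 1355 to 2280 pairs per sample.

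*Slc5a2*, the main glucose carrier of the early proximal tubule, also had its lowest mean at 10 weeks. It stood at 373, 389, 338 and 354 CPM at 8 weeks, at 295, 310, 303 and 338 CPM at 10 weeks and at 372, 327, 344 and 380 CPM at 12 weeks. The highest 10-week sample just reached into the ranges of both other ages. At 10 against 8 weeks the log2 fold change of *Slc5a2* was -0.22 ± 0.064 with an interval from -0.36 to -0.08 (edgeR adjusted p = 0.108; DESeq2 adjusted p = 0.0323), and at 12 against 10 weeks it was 0.19 ± 0.064 (edgeR adjusted p = 0.158). Between 12 and 8 weeks it differed by -0.03 ± 0.064, an interval from -11.1% to 7.67%. Over all settings tried, each library left out in turn included, the difference at 10 against 8 weeks kept its sign.

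*Slc5a12*, the lactate carrier, ranged over 451 to 513 CPM at 8 weeks, 327 to 510 CPM at 10 weeks and 402 to 538 CPM at 12 weeks. Its log2 fold changes of -0.20 ± 0.12 at 10 against 8 weeks (edgeR adjusted p = 0.455) and 0.23 ± 0.12 at 12 against 10 weeks (0.373) had the signs of those of *Slc5a2* and larger errors. The 10-week samples were the most scattered, with a coefficient of variation of 19.5% against 5.49% at 8 weeks.

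For these 4 sodium-coupled carriers the lowest mean was at 10 weeks. A water channel gene of the collecting duct, *Aqp2*, had its highest mean at that age. It was at 51.9 to 84.0 CPM at 8 weeks (10 against 8 weeks, edgeR adjusted p = 0.0549), at 91.4 to 153 CPM at 10 weeks and fell to 47.0 to 70.6 CPM at 12 weeks, from a mean of 121 ± 26.0 CPM to 56.5 ± 11.4 CPM (SD, n = 4 each; edgeR adjusted p = 0.0239). The sum over the 18 other proximal tubule genes overlapped between 8 weeks (42322 to 50587 CPM) and 10 weeks (45809 to 50362 CPM), and reached 47880 to 55435 CPM at 12 weeks. *Kap* alone had a mean of 20136 CPM over the 12 kidney samples (15999 to 23265 CPM), so these sums lean heavily on 1 gene. The 8 collecting duct genes listed summed to 454 to 528 CPM at 10 weeks, 403 to 456 CPM at 8 weeks and 393 to 432 CPM at 12 weeks. Without *Aqp2*, an alternative chosen after seeing the data, the 7 others summed to 342 to 386 CPM at 10 weeks, 348 to 373 CPM at 8 weeks and 346 to 372 CPM at 12 weeks, so that most of the higher sum was 1 gene. Of the 18 proximal tubule genes, *Cyp4b1*, a cytochrome P450, was called higher at 12 against 10 weeks (log2 0.56 ± 0.11, edgeR adjusted p = 0.0385). *Aqp2* lost its call without any of 6 libraries (adjusted p up to 0.0911), replicate 1, 2 or 3 at 10 weeks or 2, 3 or 4 at 12 weeks. *Cyp4b1* lost it without any of 7 (up to 0.116), replicate 2 or 3 at 8 weeks, 1, 2 or 3 at 10 weeks or 2 or 4 at 12 weeks. The part of tissue composition in the carriers' values was not tested.

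**Figure D2:**
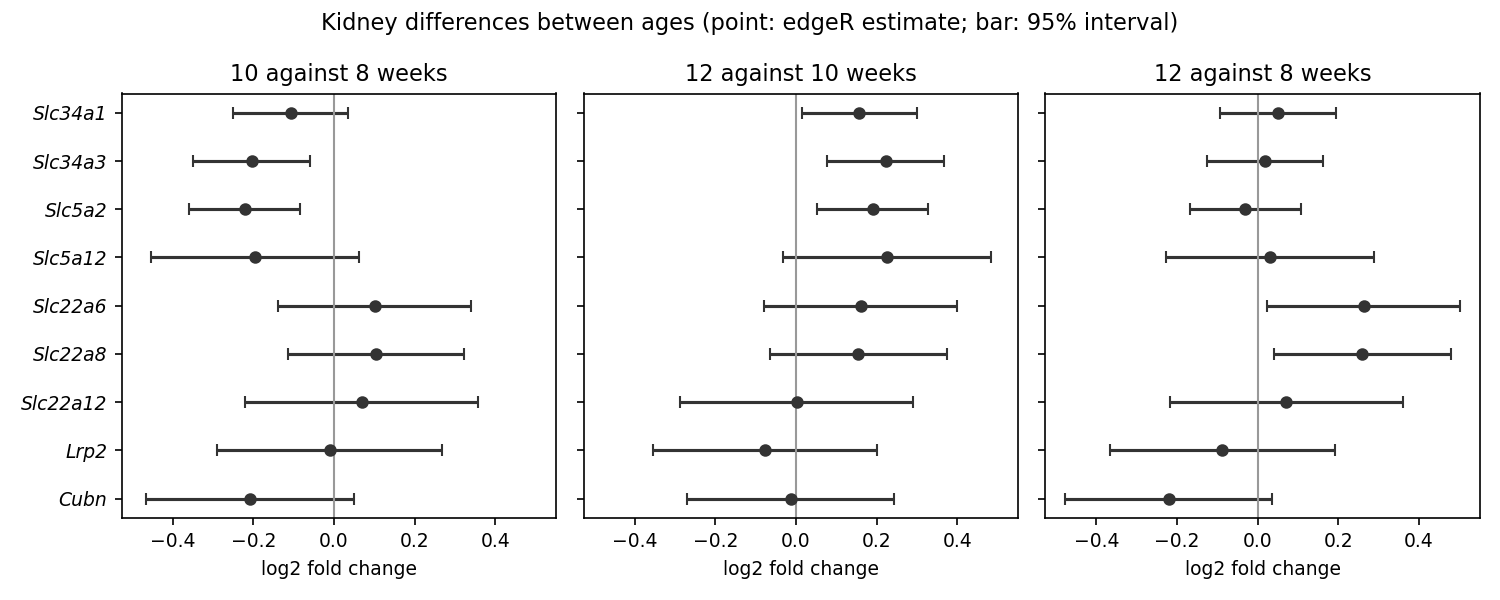
Log2 fold change of each gene between ages in kidney, with edgeR's estimate as a point and its 95% interval as a bar. *Slc34a1*, *Slc34a3*, *Slc5a2* and *Slc5a12* lie below 0 at 10 against 8 weeks and above 0 at 12 against 10 weeks, and *Slc22a6* and *Slc22a8* have intervals above 0 at 12 against 8 weeks.

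The organic anion carriers had their lowest mean at 8 weeks and their highest at 12 weeks. *Slc22a6* stood at 872, 831, 819 and 672 CPM at 8 weeks, at 939, 692, 879 and 916 CPM at 10 weeks and at 1023, 1088, 818 and 903 CPM at 12 weeks. One 12-week sample lay within the 8-week range. The log2 fold change of *Slc22a6* at 12 against 8 weeks was 0.26 ± 0.11, with an interval from 1.63% to 41.6% higher (edgeR adjusted p = 0.381, unadjusted p = 0.0337).

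*Slc22a8*, its neighbour on the chromosome, measured 358, 469, 383 and 413 CPM at 8 weeks, 479, 414, 401 and 450 CPM at 10 weeks and 532, 525, 391 and 495 CPM at 12 weeks. Replicate 3 at 12 weeks was low for both *Slc22a6* and *Slc22a8* and lay within the range of the youngest group. At 12 against 8 weeks *Slc22a8* differed by 0.26 ± 0.10 on the log2 scale, with an interval from 2.81% to 39.3% higher (edgeR adjusted p = 0.351, unadjusted p = 0.0238). It differed by 0.10 ± 0.10 at 10 against 8 weeks and by 0.16 ± 0.10 at 12 against 10 weeks.

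*Slc22a12*, the urate carrier, ranged over 618 to 716 CPM at 8 weeks, 501 to 879 CPM at 10 weeks and 623 to 803 CPM at 12 weeks. Its 10-week samples held both the highest and the lowest of all 12 values. Its difference was 0.07 ± 0.13 on the log2 scale at 12 against 8 weeks (edgeR adjusted p = 0.877), with an interval from -14.0% to 28.3%. Of the 9 genes it varied most within an age, with an SD of 0.23 on the log2 scale.

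The endocytic receptors gave no call either. *Lrp2* stood at 2790, 2569, 2283 and 2934 CPM at 8 weeks, at 3145, 2892, 2064 and 2395 CPM at 10 weeks and at 2996, 2418, 2258 and 2282 CPM at 12 weeks. Each age spanned much of the range of the others. The log2 fold change of *Lrp2* was -0.09 ± 0.13 at 12 against 8 weeks (edgeR adjusted p = 0.838), with an interval from -22.4% to 14.1%.

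*Cubn* measured 591, 564, 513 and 779 CPM at 8 weeks, 569, 606, 440 and 503 CPM at 10 weeks and 560, 485, 537 and 518 CPM at 12 weeks. Replicate 4 at 8 weeks was above the other 11 samples. *Cubn* differed by -0.22 ± 0.12 at 12 against 8 weeks (edgeR adjusted p = 0.508), and by -0.08 without that replicate.

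Replicates agreed more closely for some of the 9 genes than for others. Within an age, the SD on the log2 scale was 0.08 for *Slc34a1*, 0.09 for *Slc5a2* and 0.10 for *Slc34a3*, close to the median of 0.09 over the 3882 kidney genes with a mean of 50 CPM or more. The other 6 genes had SDs of 0.17 to 0.23, which put them at the 87.9th to 94.4th percentile of those genes. The intervals of the differences between ages were wider for these 6 genes.

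The levels of the 9 genes over the 12 kidney samples were then set against each other, for 4 pairs of partners fixed by function. *Lrp2* and *Cubn* moved together (Pearson r = 0.73, permutation p = 0.00292, adjusted over the 4 pairs 0.0117; Spearman rho = 0.73, permutation p = 0.00966, adjusted 0.0342). With the mean of each age removed r was 0.77 (permutation p = 0.00322), and without the 2 samples farthest from the median of *Lrp2* it was 0.71 (permutation p = 0.00940). The pair of receptors was the one relation of the 4 to hold in each of these forms.

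For *Slc22a6* and *Slc22a8* r was 0.62 (permutation p = 0.0294, adjusted 0.0393) and rho 0.69 (permutation p = 0.0171, adjusted 0.0342), with 0.75 without the 2 farthest samples and 0.44 with age means removed (permutation p = 0.160). *Slc5a2* and *Slc5a12* gave an r of 0.66 (permutation p = 0.0214, adjusted 0.0393) and a rho of 0.60 (permutation p = 0.0413, adjusted 0.0413), with 0.56 without the 2 farthest samples (permutation p = 0.0929) and 0.49 with age means removed (permutation p = 0.101). *Slc34a1* and *Slc34a3* gave 0.59 (permutation p = 0.0487, adjusted 0.0487) and a rho of 0.62 (permutation p = 0.0342, adjusted 0.0413), but r was 0.36 without the 2 farthest samples (permutation p = 0.305), so this relation rests on them, and 0.15 with age means removed (permutation p = 0.636). Within ages the last 3 relations did not pass.

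**Figure D3:**
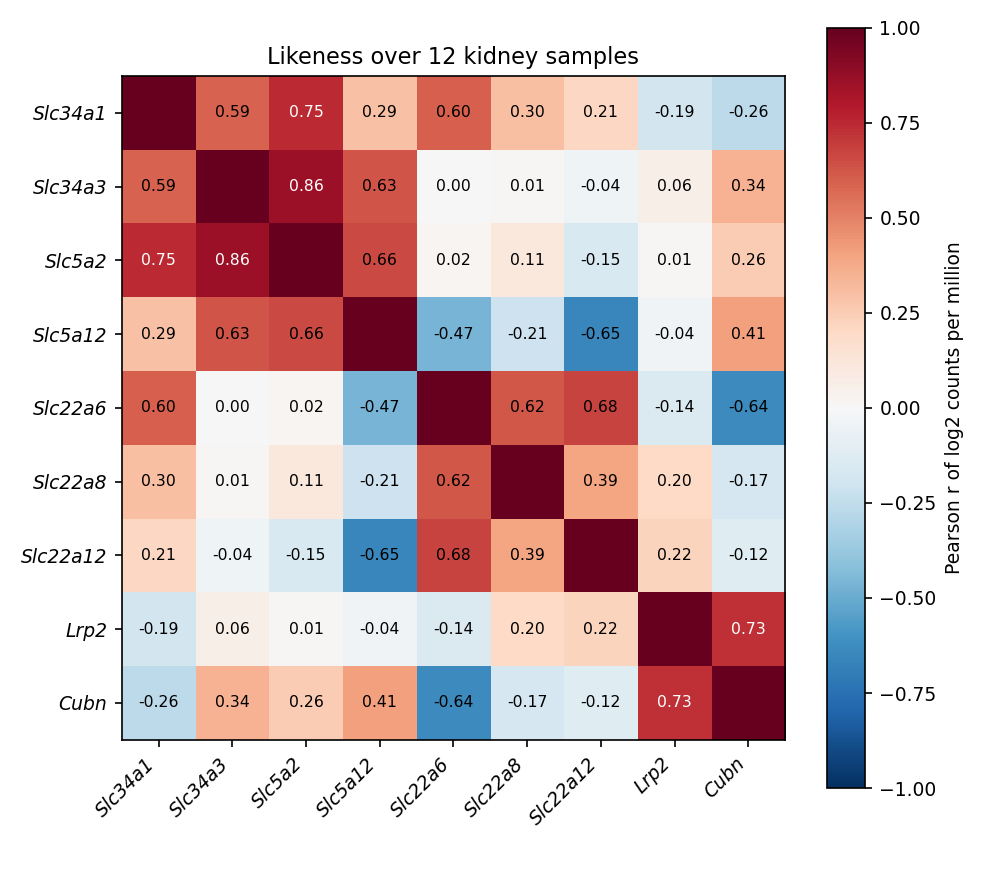
Pearson r of log2 CPM over the 12 kidney samples for every pair of the 9 genes, from blue (-1) to red (1). *Slc34a1*, *Slc34a3*, *Slc5a2* and *Slc5a12* are positive among themselves (0.29 to 0.86), as are the 3 *Slc22a* genes (0.39 to 0.68) and *Lrp2* with *Cubn* (0.73), while *Cubn* with *Slc22a6* is at -0.64.

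Across all pairs the highest r was 0.86, between *Slc34a3* and *Slc5a2*, and it was 0.69 with age means removed. *Slc34a1* and *Slc5a2* followed at 0.75. *Slc22a6* and *Slc22a12* were at 0.68, while *Slc5a12* and *Slc22a12* were at -0.65 and *Slc22a6* and *Cubn* at -0.64. These are descriptions over 12 samples that share their scaling.

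The genes most like each of the 9 were found by r over the 12 kidney samples among 14199 genes with a mean of at least 1 CPM, other members left out. *Cubn* had the closest company, with *Slc13a1*, the sodium-sulfate carrier of the same brush border (r = 0.95), and *Syt9* (0.95). *Slc34a3* and *Slc5a2* shared *Tmem198b* as the nearest gene (0.92 and 0.91), and *5031439G07Rik* (0.90) came next for *Slc34a3*. For *Lrp2* these were *Kmt2c* (0.93) and *Atg2b* (0.90), for *Slc34a1* *Ralb* (0.92) and *Pyroxd2* (0.91), and for *Slc5a12* *Mbtd1* (0.92) and *Ciart* (0.90). *Npepl1* and *Vill* (both 0.92) were nearest to *Slc22a6*, *Eef2kmt* (0.86) and *BC004004* (0.84) to *Slc22a8*, and *Gm70528* (0.92) and *Grhpr* (0.87) to *Slc22a12*. Picked as the highest of 14199 values over 12 samples, these r values were not tested and are given as a description.

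A further relation was computed after these values were seen, with the mean level of 410 other genes whose main transcript exceeds 10 kb. Each gene was centred on its mean over the samples. Over the 12 kidney samples this mean lay between -0.11 and 0.08 on the log2 scale and moved with *Lrp2* (r = 0.73, permutation p = 0.00896; rho = 0.66, permutation p = 0.0234) and with *Cubn* (r = 0.67, permutation p = 0.00626; rho = 0.80, permutation p = 0.00238). Adjusted over the 3 relations added in this way, the permutation p of r was 0.00896 for each, and without the 2 farthest samples r was 0.76 and 0.63. With age means removed r was 0.72 and 0.67. The part of transcript length in the level of the receptors was not tested.

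The 76 other proximal tubule genes in 7 functional lists gave the setting for the 9. All 76 were tested in kidney. One was called lower at 12 against 8 weeks, 1 lower at 10 against 8 weeks and 0 at 12 against 10 weeks, with 22, 15 and 26 at an unadjusted p under 0.05 in edgeR's test. These were 28.9%, 19.7% and 34.2% of the list, beside 11.7%, 16.5% and 16.4% of all kidney genes. Of all 17649 kidney genes, edgeR called 3 lower and 7 higher at 12 against 8 weeks. It called 50 lower and 114 higher at 10 against 8 weeks, and 61 lower and 24 higher at 12 against 10 weeks. With the calls included, 57 of the 76 had a negative log2 fold change at 10 against 8 weeks (median -0.07) and 54 a positive one at 12 against 10 weeks (median 0.09), where the median over all genes was 0.00 each time. At 12 against 8 weeks the signs were even, 38 and 38. The 9 genes had medians of -0.11, 0.16 and 0.03 in the same order. Both differences to 10 weeks share the 10-week samples, so their opposite signs are not independent.

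The 2 calls were both carriers. *Slc22a19*, an organic anion carrier of the same family as *Slc22a6*, was at 137 to 174 CPM at 8 weeks, 118 to 128 CPM at 10 weeks and 96.0 to 117 CPM at 12 weeks. It fell by 0.49 ± 0.076 on the log2 scale from 8 to 12 weeks (edgeR adjusted p = 0.0327). *Slc4a4*, the sodium bicarbonate carrier of the membrane facing the blood, was at 1640 to 1728 CPM at 8 weeks and at 1223 to 1502 CPM at 10 weeks, where it fell by 0.31 ± 0.065 (edgeR adjusted p = 0.0428), and at 1446 to 1595 CPM at 12 weeks. *Slc22a19* lost its call without any of 7 libraries (adjusted p up to 0.11): replicate 1, 3 or 4 at 8 weeks, replicate 4 at 10 weeks or replicate 1, 2 or 3 at 12 weeks. *Slc4a4* lost it without any of 8 (up to 0.136): every replicate at 8 weeks, replicate 1 or 3 at 10 weeks and replicate 2 or 3 at 12 weeks.

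Partners of the receptors and carriers had small differences. In the list of 13 genes of the endocytic machinery, *Lrpap1*, the chaperone of megalin, had the highest value at 12 against 8 weeks (log2 0.18 ± 0.071, edgeR adjusted p = 0.348) and *Ctns*, the lysosomal cystine carrier, the lowest (-0.21 ± 0.065, 0.259). Among 4 other phosphate carriers these were *Slc20a2* (0.18 ± 0.058, 0.291) and *Slc20a1* (-0.06 ± 0.088, 0.825), and among 7 glucose and lactate carriers *Slc5a8* (0.26 ± 0.12, 0.451) and *Slc16a1* (-0.26 ± 0.11, 0.382). Of 15 carriers of amino acids, peptides and dicarboxylates, *Slc6a19*, which takes back neutral amino acids, stood highest (0.28 ± 0.12, 0.388) and *Slc15a2* lowest (-0.29 ± 0.12, 0.355). In the 13 scaffolds, hormone receptors and transcription factors, the PDZ scaffold *Nherf1*, which anchors NaPi-IIa, stood at 0.19 ± 0.099 (0.494) and *Ppara* at -0.09 ± 0.14 (0.856).

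Against the other organs the 9 genes separated completely. All 9 were called higher in kidney than in heart and than in liver by edgeR, where 47.1% and 46% of 19716 genes were called higher in kidney. These 19716 genes passed the filter on low counts in at least 1 tissue. All of the 9 but *Lrp2* and *Cubn* entered through kidney alone. The 9 were also chosen as kidney genes, so their calls here were to be foreseen and are given as a description. In heart, all 12 samples had a count of 0 for *Slc5a12*, and the counts summed over the 12 samples were 1 for *Slc34a3*, 2 for *Slc22a6*, 6 for *Slc22a8*, 7 for *Slc34a1* and 8 for *Slc5a2*. In liver *Slc5a12* and *Slc34a3* were at 0 in all 12 samples, *Slc5a2* and *Slc22a6* each had 1 count in all, *Slc22a8* 2, *Slc22a12* 3 and *Slc34a1* 7. Taking 3 counts over the 12 samples as the limit that a count of 0 allows, *Slc5a12* was at least 47098-fold higher in kidney than in heart and at least 49223-fold higher than in liver, and *Slc34a3* at least 7084-fold higher than in liver.

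**Figure D4:**
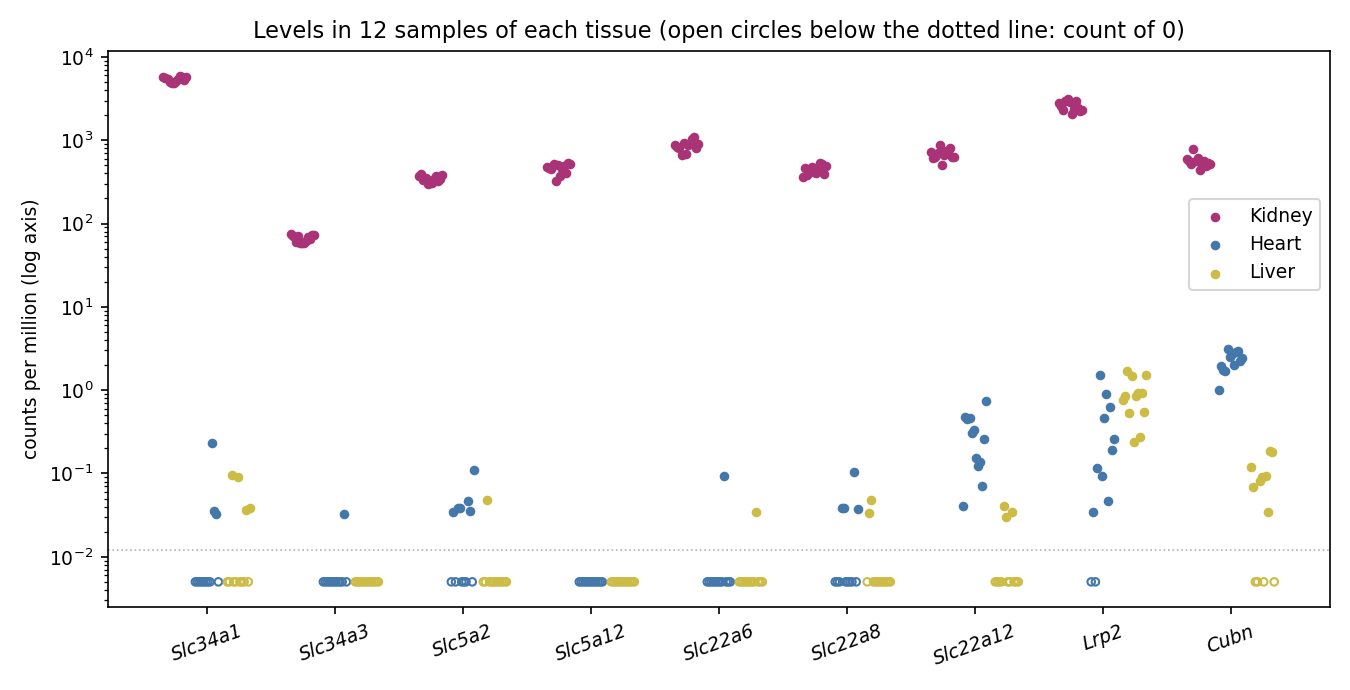
Level of each gene in the 12 samples of kidney, heart and liver (CPM, log axis), with samples at a count of 0 drawn as open circles below the dotted line. Kidney lies between 58.8 and 5900 CPM, and outside it only *Cubn* in heart and *Lrp2* in heart and liver reach 1 CPM in any sample.

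Outside the kidney the most counts were on the receptors and, in heart, on the urate carrier. *Cubn* in heart had 25 to 85 counts per sample, a mean of 2.27 ± 0.620 CPM (SD, n = 12), so kidney was 244-fold higher (95% Poisson interval 227 to 263, counting error only). *Lrp2* had 8 to 40 counts per liver sample (0.883 ± 0.473 CPM; kidney 3028-fold higher, 2690 to 3421) and 0 to 39 per heart sample (kidney 7152-fold higher, 5939 to 8694). *Slc22a12* had 1 to 20 counts per heart sample (kidney 2295-fold higher, 1871 to 2847), and *Cubn* 24 counts in all 12 liver samples (kidney 7427-fold higher, 4992 to 11592). These folds and the limits above rest on library sizes scaled within each tissue. edgeR's fit of all 36 samples, scaled together, gave 173-fold for *Cubn* against heart and 4264-fold against liver. It gave 8306-fold for *Lrp2* against heart, 1718-fold against liver and 1603-fold for *Slc22a12* against heart. Most of these lie outside the Poisson intervals.

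In heart and liver the filter on low counts left 2 and 1 of the 9 genes for the comparisons of ages. *Lrp2* in liver did not pass, with mean levels of 0.954 ± 0.503 CPM at 8 weeks, 0.878 ± 0.513 at 10 weeks and 0.818 ± 0.541 at 12 weeks (SD, n = 4; edgeR adjusted p = 0.889 to 0.961 for the 3 comparisons, 0.239%, 0.0204% and 0.0545% of all liver genes called at 12 against 8, 10 against 8 and 12 against 10 weeks, and 0.177%, 0.0136% and 0.0204% as higher at the older age). In liver the calls for *Lrp2* were 0 with edgeR, DESeq2 and limma-voom, and 0 at an unadjusted p under 0.05. Its ages overlapped in each comparison, where 8.14%, 9.55% and 8.23% of all liver genes did not, and the test for any difference (0.123% of all called) gave an edgeR adjusted p of 0.962.

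In heart, with the filter on low counts and the deposited counts, edgeR called *Lrp2* and no other of the 9 genes between ages. Its counts in heart were 0, 1, 0 and 3 at 8 weeks, 39, 2, 12 and 22 at 10 weeks and 1, 18, 6 and 7 at 12 weeks. At 10 weeks 3 samples were above all 8-week samples and 1 lay within their range. *Lrp2* passed the filter in heart only through the 10-week samples, with 75 counts in all beside 4 at 8 weeks and 32 at 12 weeks. Its call at 10 against 8 weeks is therefore not independent of the filter. edgeR gave a log2 fold change of 4.10 ± 0.92 at 10 against 8 weeks (adjusted p = 0.0415; 1.06% of 15137 heart genes called, 0.76% as higher), 2.75 ± 1.04 at 12 against 8 weeks (0.125; 4.56% called, 2.36% as higher) and -1.36 ± 0.65 at 12 against 10 weeks (0.430; 0.0396% called, 0.0132% as higher); the test for any difference gave 0.0487 (2.6% called). With 4 counts in all at 8 weeks, the size of the first value is poorly fixed. DESeq2 gave an adjusted p of 0.00295, limma-voom 0.123 and the sum of the strand counts 0.0514. Without the filter on low counts edgeR called *Lrp2* both at 10 against 8 weeks (adjusted p = 6.9e-08) and at 12 against 8 weeks (log2 2.73, adjusted p = 0.0087). Of 12 libraries left out in turn 4 left the call in place. It was lost without replicate 1, 2, 3 or 4 at 8 weeks (adjusted p = 0.0556, 0.123, 0.118 and 0.0633), without replicate 1, 3 or 4 at 10 weeks (0.113, 0.0714 and 0.104) and without replicate 3 at 12 weeks (0.0607). The change in heart minus that in kidney at 10 against 8 weeks was 4.17 ± 1.00 and did not pass (edgeR interaction, adjusted p = 0.0723; 0.198% of all genes called).

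Markers of the mesothelium, the cell layer on the outer surface of the heart, differed in the same heart samples. Their list of 10 genes was drawn up after the values of *Lrp2* were seen. The summed level of these genes was 10.6, 9.85, 13.3 and 10.6 CPM at 8 weeks, 59.999, 15.1, 35.9 and 73.3 CPM at 10 weeks and 10.5, 27.4, 14.2 and 30.3 CPM at 12 weeks. *Upk3b*, a defining marker, had 28, 6, 39 and 31 counts at 8 weeks and 422, 49, 272 and 534 at 10 weeks, and its log2 fold change was 3.61 ± 0.71 (edgeR adjusted p = 0.0235). *Msln*, which encodes mesothelin, stood at 2.99 ± 0.57 (0.0186). In all 7 of the 10 were called higher at 10 against 8 weeks, beside 0.76% of all 15137 heart genes. *Wt1*, *Bnc1* and *Krt8* were not called (edgeR adjusted p = 0.982, 0.0564 and 0.0538). *Krt19*, which was called, and *Krt8* passed the filter on low counts only through the 10-week samples. Over the 12 heart samples *Lrp2* moved with the summed level (r = 0.91, permutation p = 0.000200, adjusted over the 3 added relations 0.000600; rho = 0.86, permutation p = 0.000480, adjusted 0.00144). With age means removed r was 0.82 (permutation p = 0.00152), and without the 2 farthest samples it was 0.84 (permutation p = 0.00492). *Slc34a1*, the most abundant of the 9 genes in kidney, had a count of 0 in all 8 heart samples at 8 and 10 weeks and counts of 5, 1, 1 and 0 at 12 weeks, where the sample with 5 also had 2 counts of *Slc22a6*. The parts of the mesothelium and of any kidney RNA in the level of *Lrp2* in heart were not tested.

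**Figure D5:**
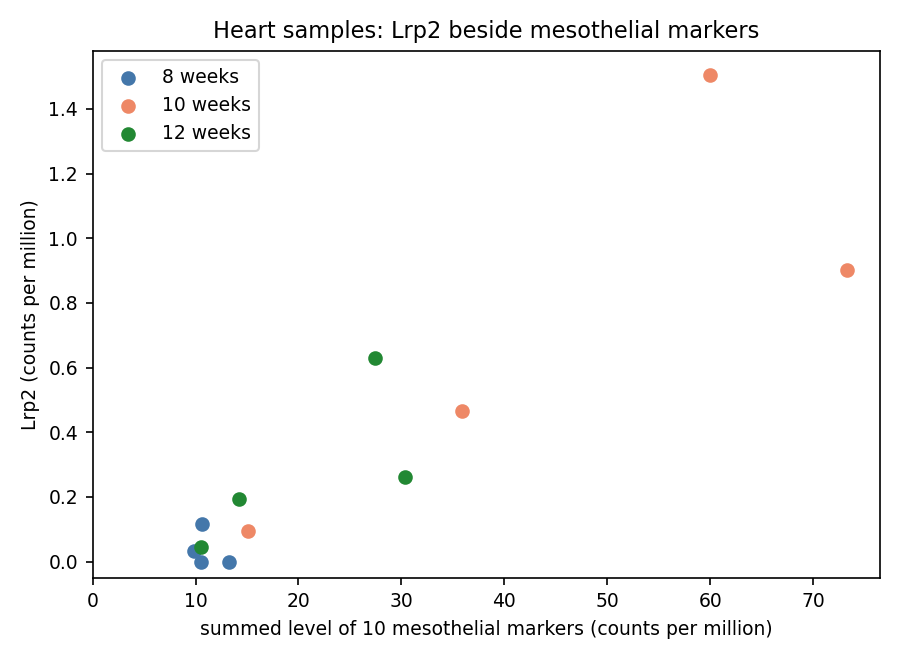
*Lrp2* (CPM) against the summed level of 10 mesothelial markers (CPM) in the 12 heart samples, coloured by age. The 8-week samples lie together at 9.85 to 13.3 CPM of marker and 0.117 CPM of *Lrp2* or less, and the 2 samples highest in marker (73.3 CPM and 59.999 CPM), both at 10 weeks, are highest in *Lrp2*.

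*Cubn* in heart had 25, 56, 38 and 44 counts at 8 weeks (1.59 ± 0.405 CPM), 80, 54, 71 and 49 at 10 weeks (2.595 ± 0.452) and 62, 85, 70 and 65 at 12 weeks (2.63 ± 0.347). After scaling, the 4 samples of 8 weeks lay below those of both later ages without overlap, as did 12.7% of all heart genes in either direction at 12 against 8 weeks and 9.78% at 10 against 8 weeks. *Cubn* differed by 0.71 ± 0.21 on the log2 scale at 12 against 8 weeks and did not pass (edgeR adjusted p = 0.0556, unadjusted p = 0.00297; DESeq2 adjusted p = 0.0257, without the filter 0.0402 and for the sum of the strand counts 0.0448). At 10 against 8 weeks it was 0.70 ± 0.21 (edgeR adjusted p = 0.116), and at 12 against 10 weeks the groups overlapped (6.08% of all did not; log2 0.01 ± 0.20, edgeR adjusted p = 0.986). With each library left out in turn, the adjusted p at 12 against 8 weeks ran from 0.0413 to 0.136 and was under 0.05 for 1 of 12, replicate 4 at 12 weeks. In kidney the same gene had a negative value (-0.22), and the difference of 0.94 ± 0.26 between the tissues did not pass (edgeR interaction, adjusted p = 0.153; 0.112% of all genes called; 0.0152% at 12 against 10 weeks, where neither receptor passed).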

How the data were processed

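RNA of 36 samples was measured by poly(A) RNA sequencing. The deposited values are counts of read pairs per gene, whole numbers without normalization. Per the labels and the study's methods, the authors checked reads with FastQC 0.11.9, trimmed them with cutadapt 4.2 and aligned and counted them with STAR 2.7.11b on GRCm39 with the Ensembl annotation. Counts that ignore strand were used. Positions and transcript lengths came from GENCODE on GRCm39, which matched 78168 of the 78239 gene identifiers.

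Groups were taken from the labels, and p-values measure the spread between these samples. Within a tissue a gene entered if some age had a mean count of 10 or more and 2 or more samples above 0, as in the study's methods. This left 17649 genes in kidney, 15137 in heart and 14672 in liver. edgeR 4.0.16 (TMM, quasi-likelihood, a mean for each age, Benjamini-Hochberg over all genes kept, threshold 0.05) in R 4.3.3 gave the main tests, with limma 3.58.1 and DESeq2 1.42.0 as alternatives. The script was tested on simulated data. log2 CPM used a prior count of 2, and relations 100000 permutations, two-sided. The genes and lists were chosen with earlier results of these data known. All 9 genes were named; from each list, the called genes or else the highest and lowest at 12 against 8 weeks; and for each of the 9 the 2 most alike. One of the latter, and 1 of the patterns searched before the genes' starts, are not reported here. Replicates differed by more than sampling noise (chi-square per degree of freedom 5.90 or more over 54 pairs). The alternatives were RLE size factors, no filter on low counts, only the 2 ages compared, a replicate block, summed strand counts and each library left out in turn. For heart and liver some of these, the mesothelium list the relation with long transcripts and the collecting duct sum without *Aqp2* were added after seeing the data.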

Additional observations from a re-analysis of the deposited data

Results flagged for a closer look

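In 1 of 34 groups of 4 samples examined for a sample apart from the rest, a value stood out: *Slc34a3* in kidney at 10 weeks, where the highest sample had 62.5 CPM and the next 59.1 CPM. The gap was 0.933 of the whole range of the group, above Dixon's 95% critical value for 4 samples, and chance flags about 1 in 20 such groups. The group is also the tightest of the 3 ages, with an SD of 1.80 CPM against 6.73 CPM at 8 weeks and 3.83 CPM at 12 weeks.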

How the results depend on the processing

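None of the 9 genes was called in kidney by edgeR with RLE size factors, limma-voom, only the 2 ages compared, the replicate block, summed strand counts or any library left out. DESeq2 called 1 lower at 10 against 8 weeks and 1 for any difference. Without the filter on low counts 2 were called higher at 12 against 8 weeks, 1 lower at 10 against 8 weeks and 3 for any difference. Over all kidney genes, edgeR called 10, 164 and 85 at 12 against 8, 10 against 8 and 12 against 10 weeks, DESeq2 137, 680 and 657, and edgeR without the filter 513, 1005 and 938; for any difference these were 144, 997 and 1570. The cause was not tested.

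Of the 76 other proximal tubule genes, 1 was called lower at 12 against 8 weeks, 2 without the filter (with 3 higher), 0 with only the 2 ages and 0 to 1 with a library left out. At 10 against 8 weeks 1 was called lower, 6 by DESeq2, 10 without the filter and 0 to 5 with a library left out. At 12 against 10 weeks 0 were called higher, 9 by DESeq2, 16 without the filter (with 1 lower) and 0 to 5 with a library left out. For any difference these counts were 1, 10, 22 and 1 to 4. In heart at 12 against 8 weeks 0 of the 9 were called, 1 by DESeq2, 2 without the filter (*Cubn* and *Lrp2*), 1 with summed strand counts and 0 to 1 with a library left out. At 10 against 8 weeks 1 was called, 0 by limma-voom or summed strand counts and 0 to 1 with a library left out. Over all heart genes at 12 against 8 weeks, edgeR called 691 of 15137 in either direction and DESeq2 1270. Without the filter edgeR called 1133 of 36652, and with summed strand counts 788 of 19019. At 10 against 8 weeks edgeR called 161 of 15137, limma-voom 107 and edgeR with summed strand counts 120 of 19019.

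Replicate numbers recur across ages and tissues without a statement that they mark shared animals. Within kidney, deviations of same-numbered samples correlated at -0.17 to 0.14, and 2 of 12 samples correlated best with their own number, so the numbers were not taken as pairs. Between kidney and heart 10 of 12 did (0.04 to 0.19), and between kidney and liver 12 of 12 (0.06 to 0.27). The main tests between tissues and the interaction tests nevertheless took all 36 samples as independent. With a block for age and number, all 9 were again called higher in kidney than in heart and than in liver. The interaction was not fitted with such a block. With the replicate block, 0 of the 9 were called in kidney, 0 of the 76 lower at 12 against 8 weeks and at 10 against 8 weeks, and 4 of all kidney genes at 12 against 8 weeks. At 12 against 10 weeks it ended the call of *Cyp4b1* (adjusted p = 0.0533) and left that of *Aqp2* (0.0440).

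With age means removed r was 0.44 for *Slc22a6* and *Slc22a8*, 0.15 for *Slc34a1* and *Slc34a3* and 0.49 for *Slc5a2* and *Slc5a12*. Uncalled log2 differences that took both signs when single libraries were left out were, at 12 against 8 weeks, *Slc34a3* (-0.048 to 0.060), *Slc5a2* (-0.065 to 0.0043), *Slc5a12* (-0.023 to 0.11) and *Slc22a12* (-0.0055 to 0.12). At 10 against 8 weeks they were *Slc22a12* (-0.062 to 0.20) and *Lrp2* (-0.11 to 0.088), and at 12 against 10 weeks *Slc22a12* (-0.13 to 0.13), *Lrp2* (-0.18 to 0.023), *Cubn* (-0.092 to 0.056) and *Cubn* in heart (-0.092 to 0.11, and -0.0049 without the filter). Depth limits the values in heart and liver, where most of the 9 genes had a few counts.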
